A study of Cricetulus griseus with 16 samples.

Results

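The enzymes described here make and rearrange disulfide bonds in secreted and membrane proteins inside the endoplasmic reticulum (ER). They were picked by name for that function, by a rule that uses no expression value, and are the protein disulfide isomerases P4hb, Pdia3, Pdia4, Pdia5 and Pdia6, the related thioredoxin-fold proteins Txndc5, Erp44 and Tmx1, and the oxidases Ero1a and Ero1b. All 10 were found among the 20824 genes counted, Ero1a and Ero1b under the older names Ero1l and Ero1lb. RNA was sequenced from CHO cells (ATCC CCL-61), an established line from Chinese hamster ovary, in 16 libraries from 4 biological repeats of each of 4 groups. The control cells stayed at 37 °C without treatment, and the heated cells were kept at 40 °C, for either 1 h or 6 h, or spent 1 h at 42.5 °C. All groups share the line and its culture medium, and a single cell line without a tissue around it is the limit of the model. The comparisons ask how the duration of mild, fever-range heat and a short, hotter treatment change the transcripts of these genes.

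Protein disulfide isomerases pass disulfide bonds to folding proteins through a pair of cysteines in a thioredoxin-like domain, and they also reduce and reshuffle wrong bonds. The oxidases of the Ero1 family re-oxidise the isomerases and hand the electrons to oxygen, which yields hydrogen peroxide. Several of these enzymes are known targets of the unfolded protein response (UPR), the signaling program by which cells with misfolded ER proteins raise the capacity of the ER to fold and remove them.

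Total counts were between 10504192 and 14668365 per library, and the lowest count of any of the 10 genes in the libraries used was 140, for Ero1b. A level is given as CPM, the count of a gene relative to the size of its library, with the sizes scaled by TMM, a factor that removes differences in library composition. CPM cannot be compared between genes, since no transcript length enters it, and in a bulk library a change of RNA in every cell cannot be told apart from a change in the number of cells that hold it. The study's methods leave out a control library as inconsistent with the rest of its group. The 37 °C replicate D was taken to be that library, since its counts are not those the study lists. It was left out, so the control group holds replicates A to C. Replicate D stood apart (correlation of 0.974 to 0.976 with the other controls, which correlated at 0.995 to 0.996 with each other over 10565 genes). Of 7 mesenchymal markers, 5 were above 3 counts in every library used, led by Vim at 2231 ± 70.5 CPM (SD, n = 3) at 37 °C, while Col1a1 and Col1a2 were at no more than 0.353 CPM. Of 5 granulosa cell markers, 3 (Foxl2, Fshr and Cyp19a1) had a count of 0 in all libraries used, which allows at most 0.204 to 0.296 CPM per library, and 2 were above 3 counts in every library, Amh at group means of 2.72 to 4.84 CPM and Inha at 1.48 to 1.97 CPM. Amh was 0.83 higher on the log2 scale after 6 h at 40 °C than after 42.5 °C (adjusted p = 0.0058). The steroidogenic marker Star was at 4.32 ± 0.446 CPM at 37 °C and rose to 7.33 ± 0.864 CPM after 6 h at 40 °C (adjusted p = 0.00094) and to 8.62 ± 1.73 CPM after 42.5 °C (adjusted p = 0.000201). The summed granulosa markers were between 3.57 and 5.47 CPM at 37 °C, 4.32 and 5.91 CPM after 1 h at 40 °C, 4.83 and 8.63 CPM after 6 h and 3.55 and 4.65 CPM after 42.5 °C, and the 3 of 4 steroidogenic markers found summed to 3.88 to 4.84, 4.42 to 5.64, 6.53 to 8.07 and 6.68 to 10.6 CPM in the same order. The summed mesenchymal markers were between 2944 and 3061 CPM at 37 °C, 2869 and 2984 CPM after 40 °C for 1 h, 2591 and 2930 CPM after 40 °C for 6 h and 3091 and 3221 CPM after 42.5 °C. The part of these markers in the results was not tested.

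After 6 h at 40 °C, 6 of the 10 genes had risen, with Pdia4 close to doubled, Pdia3 1.53-fold higher, and Pdia6, Erp44, P4hb and Tmx1 1.27-fold, 1.20-fold, 1.18-fold and 1.15-fold higher, in that order. After 1 h at 42.5 °C, 6 genes had also risen, but by 1.13-fold to 1.30-fold, with Pdia3 the largest change and Txndc5 in the place of Pdia6. None passed the test after 1 h at 40 °C, and 4 passed with the replicate letter as a block. No gene of the 10 fell against 37 °C in any of the 3 heated groups, and neither oxidase passed the test in any comparison. The threshold for rising or falling was a Benjamini-Hochberg adjusted p below 0.05 in edgeR's quasi-likelihood test over all genes tested, and a stricter rule, also the study's, adds a fold change of at least 1.5.

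Beside these counts stand the shares of all genes tested. After 6 h at 40 °C, 14.7% of 10499 genes rose and 14.8% fell, against 6 and 0 of the 10 genes, and 3.11% passed the 1.5-fold rule, against 2 of the 10 (Pdia3 and Pdia4). After 1 h at 42.5 °C, 20.8% of 10470 genes rose and 22.3% fell, against 6 and 0 of the 10, and 7.51% passed the 1.5-fold rule, against 0 of the 10 by edgeR and 0 by DESeq2, with 7 of the 10 and 50.7% of all genes at an unadjusted p below 0.05. After 1 h at 40 °C, 1.07% of 10494 genes rose, 0.572% fell and 0.334% passed the 1.5-fold rule, against 0 of the 10 for each by edgeR and by DESeq2. In that comparison 4 of the 10 genes had an unadjusted p below 0.05, as did 14.8% of all genes. The median log2 fold change of the 10 genes was 0.06 after 1 h at 40 °C, 0.22 after 6 h and 0.20 at 42.5 °C, beside medians over all genes of 0.00036, 0.0012 and -0.0017.

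**Figure D1:**
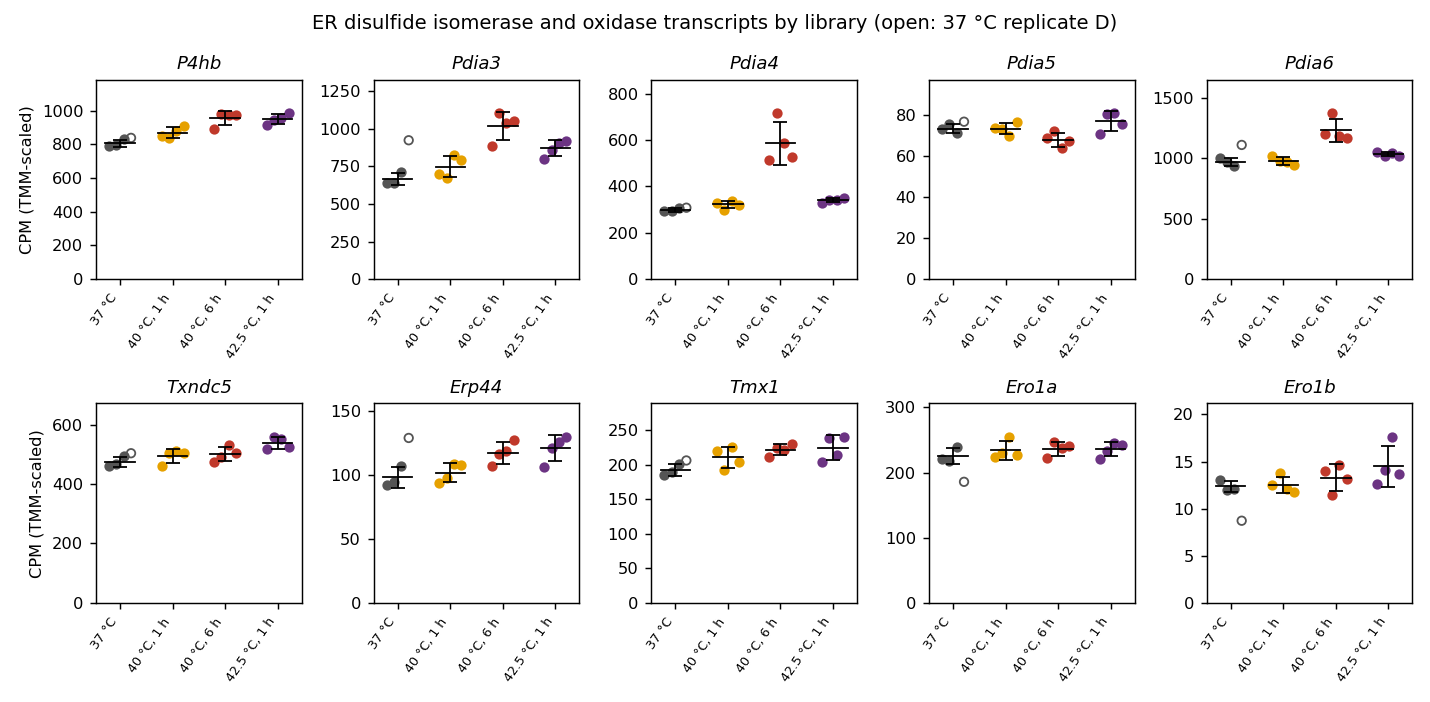
Level of each gene in every library, in TMM-scaled CPM on axes that start at 0, by group on the horizontal axis. Filled points are the libraries used, black bars the mean and SD (n = 3 at 37 °C, n = 4 elsewhere), and the open point is 37 °C replicate D, which enters no mean. Pdia4 stands between 512 and 717 CPM after 6 h at 40 °C and at no more than 349 CPM in every other library.

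Pdia4 (ENSCGRG00001005477), an isomerase that works beside the ER chaperone Hspa5, had the largest rise of the 10. It was at 295, 292 and 308 CPM in 37 °C replicates A to C, and at 330, 300.2, 339 and 322 CPM in replicates A to D after 1 h at 40 °C. After 6 h the replicates were at 512, 717, 587 and 525 CPM, and after 1 h at 42.5 °C at 328, 343, 343 and 349 CPM. All 4 libraries of 40 °C for 6 h lay above every library of the other groups, replicate B the highest, and all libraries of 42.5 °C lay above all 3 control libraries, while the groups at 37 °C and at 40 °C for 1 h overlapped. The group means were 298 ± 8.32, 322 ± 16.4, 585 ± 93.5 and 341 ± 9.04 CPM (SD, n = 3, 4, 4 and 4). The rise at 6 h was 0.97 on the log2 scale (SE 0.0858, 95% interval 0.79 to 1.15, adjusted p = 1.09e-06), a 1.96-fold change. At 42.5 °C it was 0.18 (SE 0.0385, adjusted p = 0.00125), or 1.14-fold, a call that was lost in a single fit of all 4 groups (0.19, adjusted p = 0.053). After 1 h at 40 °C the difference was 0.11 (SE 0.0452, adjusted p = 0.258). Pdia4 was the only one of the 10 that also passed a test of whether its change at 6 h exceeds 1.5-fold (edgeR's glmTreat, adjusted p = 0.0118). Of all 10499 genes tested, 31 passed it.

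Pdia3 (ENSCGRG00001008721), also called ERp57, works with calnexin and calreticulin on glycoproteins and in loading MHC class I molecules. It was at 642, 643 and 712 CPM in the 37 °C replicates, 701, 676, 826 and 791 CPM after 1 h at 40 °C, 884, 1105, 1040.0 and 1049 CPM after 6 h at 40 °C and 798, 862, 903 and 919 CPM after 42.5 °C. The libraries of 40 °C for 6 h and of 42.5 °C all lay above the 3 controls, and the 2 heated groups overlapped through replicate A of the 6 h group. The means of the 4 groups were 666 ± 40.3, 748 ± 71.5, 1019 ± 94.8 and 870 ± 54 CPM, in the order 37 °C, 40 °C for 1 h, 40 °C for 6 h and 42.5 °C. Pdia3 rose by 0.61 on the log2 scale at 6 h (SE 0.0659, adjusted p = 6.14e-06) and by 0.38 at 42.5 °C (SE 0.052, adjusted p = 3.45e-05). In 37 °C replicate D it was at 924 CPM, 1.39 times the mean of the other controls. With that library included, the difference at 42.5 °C was 0.26 (adjusted p = 0.127) and the rise at 6 h was 0.48 (adjusted p = 0.0339), below the 1.5-fold rule. The 1.5-fold call at 6 h was also lost without replicate B of the 6 h group, where the rise was 0.57.

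Pdia6 (ENSCGRG00001017472), an isomerase that also acts on the UPR sensors, was at 998, 968 and 934 CPM at 37 °C and at 1016, 980, 969 and 940.0 CPM after 1 h at 40 °C. After 6 h its replicates were at 1200, 1373, 1179 and 1170 CPM, and after 42.5 °C at 1053, 1016, 1044 and 1018 CPM. The 6 h libraries lay above all others, with replicate B apart from its group. Pdia6 rose by 0.34 at 6 h (SE 0.0574, adjusted p = 0.000329), or 1.27-fold. At 42.5 °C the difference was 0.09 (95% interval 0.01 to 0.17, adjusted p = 0.0684), although its 4 libraries lay above the 3 controls. In the RefSeq annotation of another assembly the span of Pdia6, alone among the 10 genes, overlaps a further gene, a small nucleolar RNA, and how reads shared by both were counted is not given in the sources used here.

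P4hb (ENSCGRG00001013338), the founding protein disulfide isomerase and the β subunit of collagen prolyl 4-hydroxylase, was at 790, 797 and 830 CPM at 37 °C. Its heated libraries were at 847, 837, 880 and 907 CPM after 1 h at 40 °C, 893, 981, 973 and 973 CPM after 6 h and 914, 942, 956 and 986 CPM after 42.5 °C. No heated library overlapped the controls used. P4hb rose by 0.24 at 6 h (SE 0.0485, adjusted p = 0.00137) and by 0.23 at 42.5 °C (SE 0.0389, adjusted p = 0.000231), and the difference after 1 h at 40 °C was 0.11 (SE 0.0423, adjusted p = 0.25). It was the only gene of the 10 whose libraries after 1 h at 40 °C all lay above the controls used. The share of all genes with such a separation was not counted. The left-out control replicate D was at 838 CPM, above the 837 CPM of replicate B after 1 h at 40 °C.

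**Figure D2:**
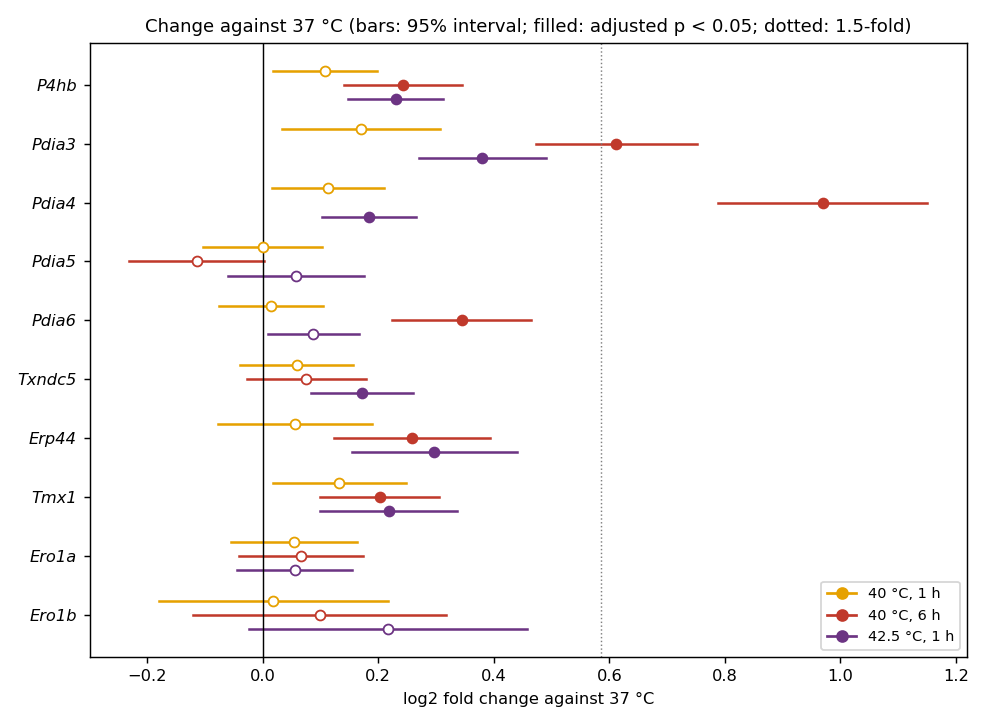
Log2 fold change of each gene against 37 °C in the 3 heated groups, with 95% intervals from the fit. Filled points passed the test, open points did not, and the dotted line marks a 1.5-fold rise. Pdia4 at 0.97 and Pdia3 at 0.61 after 6 h at 40 °C lie beyond the dotted line, and the intervals of Ero1a and Ero1b cross 0 in each group.

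Pdia5 (ENSCGRG00001005309), a less studied isomerase known to act on the UPR sensor ATF6, was the only one of the 10 with a fitted value below 0 against 37 °C. Its groups ran from 71.2 to 75.6 CPM at 37 °C, 69.8 to 76.5 CPM after 1 h at 40 °C, 63.8 to 72.0 CPM after 6 h and 70.6 to 80.9 CPM after 42.5 °C. The ranges overlapped throughout, and against 37 °C the log2 difference was -0.11 at 6 h (95% interval -0.23 to 0.0025, adjusted p = 0.13) and 0.06 at 42.5 °C (adjusted p = 0.418).

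Txndc5 (ENSCGRG00001022611), also called ERp46 and an introducer of disulfides into new proteins, rose after 1 h at 42.5 °C. It was at 462, 468 and 495 CPM in the control replicates and at 517, 559, 550.4 and 523 CPM after 42.5 °C, with no overlap between the groups. That rise was 0.17 (SE 0.0416, adjusted p = 0.00362). After 40 °C it was between 459 and 512 CPM at 1 h and between 475 and 532 CPM at 6 h, with differences from 37 °C of 0.06 (adjusted p = 0.597) and 0.08 (adjusted p = 0.262). Tmx1 (ENSCGRG00001017821), an isomerase anchored in the ER membrane, was at 185, 190 and 201 CPM at 37 °C, and all 4 libraries of 40 °C for 6 h (210 to 229 CPM) and of 42.5 °C (204 to 240 CPM) were above these. Tmx1 rose by 0.20 at 6 h (SE 0.0487, adjusted p = 0.00495) and by 0.22 at 42.5 °C (SE 0.056, adjusted p = 0.00535).

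Erp44 (ENSCGRG00001019603) cycles between the ER and the Golgi and brings back escaped proteins that lack a retention signal, among them the Ero1 oxidases. It was at 92.3, 94.9 and 108 CPM at 37 °C, 94.1, 97.6, 108 and 108 CPM after 1 h at 40 °C, 107, 117, 119 and 128 CPM after 6 h and 106, 122, 126 and 130.1 CPM after 42.5 °C. Both of these last groups had 1 library, replicate A, just below the highest control. Erp44 rose by 0.26 at 6 h (SE 0.0644, adjusted p = 0.00601) and by 0.30 at 42.5 °C (SE 0.0672, adjusted p = 0.00227). Replicate D of the control was at 129 CPM, 1.31 times the mean of the other controls, and with it these differences were 0.15 (adjusted p = 0.394) and 0.20 (adjusted p = 0.215). The calls of Tmx1 were lost with that library as well, at 6 h (0.18, adjusted p = 0.0822) and at 42.5 °C (0.20, adjusted p = 0.0668), and so was that of Txndc5 at 42.5 °C (0.16, adjusted p = 0.0688). Those of P4hb and Pdia4 held in both comparisons and that of Pdia6 held at 6 h.

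Ero1a (ENSCGRG00001011686), the widely expressed oxidase and a known hypoxia target, was at 221, 217 and 239 CPM at 37 °C, 224, 230.3, 255 and 227 CPM after 1 h at 40 °C, 222, 247, 238 and 240.3 CPM after 6 h and 222, 233, 245 and 243 CPM after 42.5 °C. All 4 groups overlapped. Its log2 difference from 37 °C was 0.05 (95% interval -0.05 to 0.16), 0.07 (-0.04 to 0.17) and 0.06 (-0.04 to 0.16) in the 3 heated groups, in the same order. The upper limits of these intervals reach up to a 1.13-fold rise. With all 4 controls the differences were 0.118, 0.13 and 0.13 (adjusted p = 0.9, 0.336 and 0.32). Ero1b (ENSCGRG00001025067), the isoform known from the pancreas, was at 12 to 13.1 CPM at 37 °C, 11.8 to 13.7 CPM after 1 h at 40 °C, 11.4 to 14.6 CPM after 6 h and 12.6 to 17.6 CPM after 42.5 °C. Its intervals are wider, and at 42.5 °C the difference of 0.22 (adjusted p = 0.133) had an interval from -0.02 to 0.46, which reaches up to a 1.37-fold rise. The libraries of that group had a coefficient of variation of 15% for Ero1b. In the left-out control replicate D, Ero1a was at 0.823 and Ero1b at 0.705 times the mean of the other controls, the only ones of the 10 that were lower there.

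Same-lettered libraries of 40 °C for 1 h and of the controls deviated from their group means together, but weakly (correlations 0.102 to 0.189). With the letter as a block, 4 of the 10 genes rose, beside 0 without it, and 3.63% of 10494 genes rose, beside the 1.07% without it. These were Pdia3 (0.14, adjusted p = 0.0039), Pdia4 (0.11, adjusted p = 0.0223), Tmx1 (0.15, adjusted p = 0.0239) and P4hb (0.09, adjusted p = 0.0328). None reached 1.5-fold in either fit. In the blocked fit, replicate D of the heated group had no control partner, so the blocked differences rest on replicates A to C.

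The heated groups were then compared with each other. At 40 °C, the groups of 6 h and 1 h differ in duration, and the treatments of 1 h differ in temperature. The 6 h treatment and the hotter 1 h treatment differ in both, so that comparison cannot separate duration from temperature. No duration is given for the control cells, so time in culture is not separated from 6 h of heat. The longer treatment at 40 °C gave higher Pdia4, Pdia3 and Pdia6 than either 1 h treatment, while P4hb, Erp44, Tmx1 and Txndc5 did not pass the test between the 6 h treatment and the hotter one. Against 40 °C for 1 h, 5 of the 10 genes were higher after 6 h, beside 9.45% of 10439 genes, and Pdia4 passed the 1.5-fold rule, beside 1.28% of all genes. The differences were 0.86 for Pdia4 (SE 0.0807, adjusted p = 8.08e-06), 0.45 for Pdia3 (SE 0.0702, adjusted p = 0.000482), 0.33 for Pdia6 (SE 0.0537, adjusted p = 0.00059), 0.21 for Erp44 (adjusted p = 0.0242) and 0.14 for P4hb (adjusted p = 0.0483). The call of P4hb held in only 5 of 15 alternatives. It was lost with DESeq2 size factors (adjusted p = 0.0501), without a filter on low counts (adjusted p = 0.0522), with a stricter filter (adjusted p = 0.0509), against a 1.5-fold change and without any single library other than replicate D of 40 °C for 1 h or A of 40 °C for 6 h (adjusted p = 0.0825 to 0.132). That of Erp44 held in 10 of 15 and was lost against a 1.5-fold change and without replicate A (0.17, adjusted p = 0.081) or B (0.19, adjusted p = 0.0745) of 40 °C for 1 h or C (0.20, adjusted p = 0.0651) or D (0.16, adjusted p = 0.0776) of 40 °C for 6 h.

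Against 42.5 °C for 1 h, 3 of the 10 genes were higher after 6 h at 40 °C and 1 was lower, beside 24.5% and 22.5% of 10427 genes, and Pdia4 alone passed the 1.5-fold rule, beside 8.25% of all genes. Pdia4 was 0.79 higher (SE 0.0773, adjusted p = 4.97e-07), or 1.73-fold, Pdia6 0.26 higher (SE 0.05, adjusted p = 0.000448) and Pdia3 0.23 higher (SE 0.0611, adjusted p = 0.00462). Pdia5 was lower after 6 h at 40 °C than after 42.5 °C by a log2 difference of -0.17 (SE 0.057, adjusted p = 0.0211), and that call was lost without replicate C of 40 °C for 6 h (-0.14, adjusted p = 0.0782) or replicate B (-0.15, adjusted p = 0.0699) or C (-0.14, adjusted p = 0.0751) of 42.5 °C. For P4hb the difference was 0.01 (95% interval -0.08 to 0.11), for Tmx1 -0.01 (-0.12 to 0.10), for Erp44 -0.04 (-0.17 to 0.10) and for Txndc5 -0.09 (-0.19 to 0.0012).

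At equal duration, 42.5 °C against 40 °C for 1 h, 3 of the 10 genes were higher at the hotter temperature, beside 16.4% of 10441 genes. None passed the 1.5-fold rule by edgeR or by DESeq2, beside 5.27% of all genes, and 4 of the 10 had an unadjusted p below 0.05, as did 45.9% of all genes. Erp44 was 0.24 higher (SE 0.0626, adjusted p = 0.0071), Pdia3 0.21 higher (SE 0.0604, adjusted p = 0.0125) and P4hb 0.12 higher (SE 0.0391, adjusted p = 0.0219). The difference of P4hb no longer passed without replicate A (adjusted p = 0.0626) or B (adjusted p = 0.0666) of 40 °C. For Pdia4 the difference was 0.07 (95% interval -0.02 to 0.16, adjusted p = 0.189). Txndc5 was just short of the threshold (0.11, adjusted p = 0.0515) and passed it with DESeq2 (adjusted p = 0.0358).

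**Figure D3:**
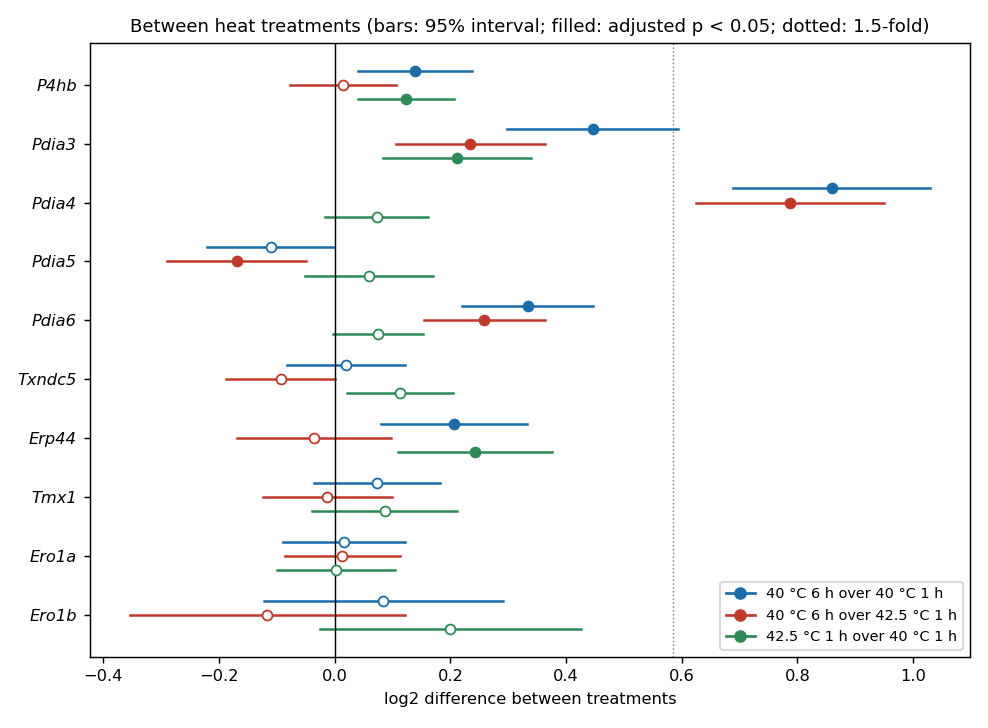
Log2 difference between pairs of heat treatments for each gene, with 95% intervals. Filled points passed the test, and the dotted line marks 1.5-fold. Pdia4 is 0.86 higher after 6 h at 40 °C than after 1 h and 0.79 higher than after 42.5 °C, and the 3 differences of Ero1a lie between 0.0023 and 0.02.

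Put in order of its group means, Pdia4 was lowest at 37 °C, then after 1 h at 40 °C, then at 42.5 °C, and highest after 6 h at 40 °C, and the last of these steps passed the test. The first step passed only with the letter as a block (adjusted p = 0.0223), and the second did not pass (adjusted p = 0.189). Pdia3 had the same order and likewise passed at the first step only with the block (adjusted p = 0.0039), with the steps from 40 °C for 1 h to 42.5 °C and from there to 40 °C for 6 h both passing. For Erp44 and Tmx1 the highest mean was at 42.5 °C (121 ± 10.4 and 224 ± 18.2 CPM) and the next at 40 °C for 6 h (118 ± 8.58 and 221 ± 8.03 CPM), steps that did not pass. Txndc5 followed the same order of groups, at 475 ± 17.6, 494 ± 24, 501 ± 24.2 and 537 ± 20.7 CPM, and no step between neighbors passed.

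Within the group of 40 °C for 6 h, replicate A was the lowest library for 7 of the 10 genes and replicate B the highest for 6 of them. The shares of all genes lowest in replicate A or highest in replicate B were not counted. Pdia4 had a coefficient of variation of 16% in this group, against 2.65% to 5.09% in the other groups. Without replicate B its rise was 0.86 (adjusted p = 7.27e-09) and without replicate A 1.03 (adjusted p = 5.9e-07).

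The make-up of the group of genes also shifted, which is seen without any scaling between libraries. Of the counts summed over the 10 genes, Pdia4 took 7.83% ± 0.0464 at 37 °C, 7.98% ± 0.261 after 1 h at 40 °C, 11.8% ± 1.18 after 6 h and 7.74% ± 0.0588 after 42.5 °C. Its lowest share at 6 h, 10.7%, was above its highest share elsewhere, 8.30%. Pdia3 took 17.4% ± 0.664 at 37 °C, 20.6% ± 0.919 after 6 h and 19.8% ± 0.688 after 42.5 °C. The share of P4hb was 21.1% ± 0.161 at 37 °C and 19.3% ± 0.649 after 6 h. In the same order, that of Txndc5 was 12.4% ± 0.202 and 10.2% ± 0.654, and that of Ero1a 5.92% ± 0.181 and 4.79% ± 0.119. Tmx1 went from 5.03% ± 0.123 to 4.48% ± 0.208, Pdia5 from 1.93% ± 0.0962 to 1.38% ± 0.0918 and Ero1b from 0.324% ± 0.0194 to 0.27% ± 0.041. The libraries did not overlap in any of these genes, although P4hb and Tmx1 rose in CPM. The shares of Pdia6 and Erp44 overlapped between the groups. Shares add up to the same total, so a larger one lowers the others. The summed level of the 10 genes was 3813 ± 84.6 CPM at 37 °C, 4041 ± 129 CPM after 1 h at 40 °C, 4948 ± 309 CPM after 6 h and 4403 ± 125 CPM after 42.5 °C.

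**Figure D4:**
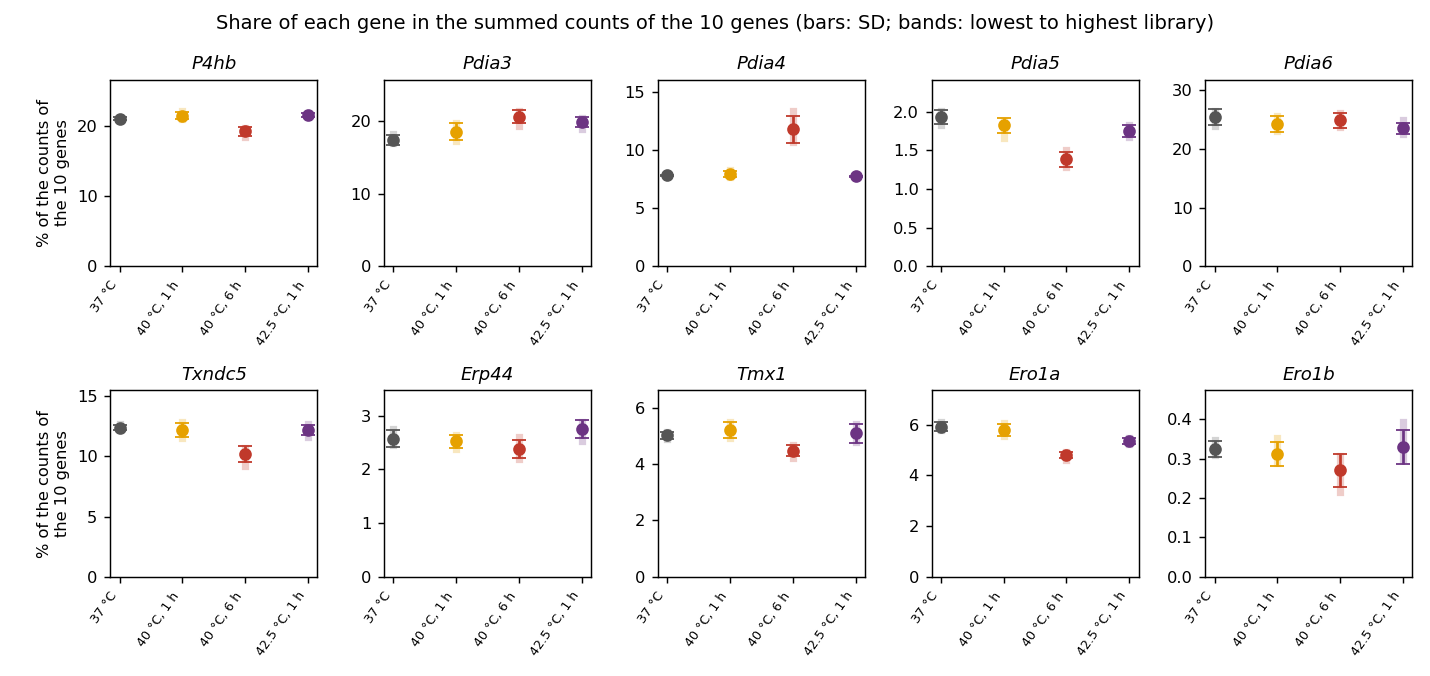
Share of each gene in the summed counts of the 10 genes, in percent on axes that start at 0, by group. Points are means, bars the SD over libraries (n = 3 at 37 °C, n = 4 elsewhere) and bands the lowest to highest library. Pdia4 goes from 7.83% at 37 °C to 11.8% after 6 h at 40 °C, and Ero1a from 5.92% to 4.79%.

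The genes whose profiles over the 15 libraries were closest to that of Pdia4 were sought among 10627 genes, by the root mean square distance between mean-centered log2 CPM values. Nearest was Hspa5 (0.0693), the ER Hsp70 chaperone also called BiP, then Zfp423 (0.103), a zinc finger transcription factor, and Hsp90b1 (0.121), the ER Hsp90 chaperone also called GRP94, where the SD of Pdia4 itself was 0.409. Hspa5 was at 2078 ± 70.2, 2381 ± 161, 4545 ± 916 and 2560 ± 206 CPM in the groups at 37 °C, 40 °C for 1 h, 40 °C for 6 h and 42.5 °C, and Hsp90b1 at 2292 ± 89.2, 2556 ± 172, 3876 ± 470 and 2738 ± 152 CPM. Zfp423 was at 26.2 ± 1.45, 27.1 ± 0.534, 46.3 ± 6.38 and 26.5 ± 2.57 CPM. For Pdia3, whose SD was 0.256, the nearest named genes were Gkap1 (0.0595) and the RNA helicase Ddx50 (0.0651). These distances are a description over libraries that share their groups.

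P4hb serves other enzymes as a subunit, and 3 of 4 such partners were expressed enough to be tested. P4ha1, a catalytic subunit of collagen prolyl 4-hydroxylase, rose in each heated group, by 0.24 after 1 h at 40 °C (SE 0.0559, adjusted p = 0.0387), 0.57 after 6 h (SE 0.0768, adjusted p = 4.94e-05) and 0.49 at 42.5 °C (SE 0.0506, adjusted p = 2.28e-06). Its level went from 134 ± 4.55 CPM at 37 °C to 200 ± 26.8 CPM after 6 h and 189 ± 12.3 CPM after 42.5 °C. P4ha2 rose by 0.57 (adjusted p = 0.00421) and P4ha3 fell by 0.25 (adjusted p = 0.0117) after 6 h. The fourth partner, the lipid transfer protein subunit Mttp, did not pass the filter on low counts.

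Of 13 other ER proteins with a thioredoxin fold, 8 could be tested, and 2 rose and 1 fell after 6 h at 40 °C. Erp29, a chaperone of this fold without the usual cysteine pair, rose by 0.51 (SE 0.0659, adjusted p = 3.41e-05), from 121 ± 2.52 to 173 ± 18 CPM, and Tmx2 rose by 0.14 (adjusted p = 0.0454), while the membrane protein Tmx4 fell by 0.45 (adjusted p = 0.00889). Erp29 did not pass at 42.5 °C (-0.06, adjusted p = 0.385). There Txndc11 fell by 0.46 (adjusted p = 3.68e-06) and Tmx4 by 0.28 (adjusted p = 0.0314), and Txndc12 (0.20, adjusted p = 0.0336) and Dnajc10 (0.11, adjusted p = 0.0456) rose. The medians were 0.04 at 6 h and -0.02 at 42.5 °C. Of the 8, 0 passed after 1 h at 40 °C by edgeR and 0 by DESeq2, with 1 at an unadjusted p below 0.05.

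Of the other thiol, peroxide and quinone oxidation genes of the secretory pathway, 1 of 10 tested genes rose and 2 fell after 6 h at 40 °C, with a median of 0.0014. The 2 that fell were the sulfhydryl oxidases Qsox2 (by 0.45, adjusted p = 1.41e-05) and Qsox1 (by 0.22, adjusted p = 0.00502), which act outside the Ero1 route, and Selenos, a selenoprotein of ER-associated degradation, rose by 0.31 (adjusted p = 0.0111). After 42.5 °C, Prdx4, the ER peroxiredoxin that uses the peroxide made by Ero1, rose by 0.27 (adjusted p = 0.000522), Gpx8, an ER peroxidase, by 0.16 (adjusted p = 0.0114) and Selenom by 0.46 (adjusted p = 0.0141), and Qsox2 fell by 0.14 (adjusted p = 0.0292). None passed after 1 h at 40 °C, with 0 of these 10 by edgeR and 0 by DESeq2, and 0 had an unadjusted p below 0.05.

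In the calnexin cycle, in which Pdia3 works, 3 of 9 tested genes rose and 1 fell after 6 h at 40 °C, with a median of 0.03. The lectin chaperones Calr (0.55, adjusted p = 5.89e-06) and Canx (0.33, adjusted p = 5.63e-05) and the glucosidase Mogs (0.45, adjusted p = 4.94e-05) rose, and Uggt2, a folding sensor, fell by 0.35 (adjusted p = 0.00851). Mogs moved the other way at 42.5 °C, where it fell by 0.30 (adjusted p = 0.00313), and there Canx rose by 0.18 (adjusted p = 0.000855), Calr by 0.13 (adjusted p = 0.0106), Ganab by 0.12 (adjusted p = 0.0154) and Uggt1 by 0.11 (adjusted p = 0.0322). Of the 9, 0 passed after 1 h at 40 °C by edgeR and 0 by DESeq2, with 2 at an unadjusted p below 0.05.

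Of the ER lumen chaperones, which bind folding proteins beside the isomerases, 12 of 13 rose after 6 h at 40 °C, 5 of them by the 1.5-fold rule, with a median of 0.50. Hspa5 rose by 1.13 (SE 0.105, adjusted p = 1.6e-06), Serpinh1, the collagen chaperone, by 0.86 (adjusted p = 3.98e-06), Manf by 0.81 (adjusted p = 3.55e-06) and Hsp90b1 by 0.75 (adjusted p = 2.51e-06). Sil1, a nucleotide exchange factor of Hspa5, did not pass (-0.08, adjusted p = 0.517). After 1 h at 40 °C, 2 of the 13 rose, Manf (0.25, adjusted p = 0.0276) and Serpinh1 (0.32, adjusted p = 0.0387), and by DESeq2 4 passed. After 42.5 °C, 7 of 13 rose with a median of 0.12, and Serpinh1 had the largest change of the 13, 1.22 (SE 0.139, adjusted p = 5.84e-06), or from 562 ± 18.6 to 1318 ± 358 CPM.

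**Figure D5:**
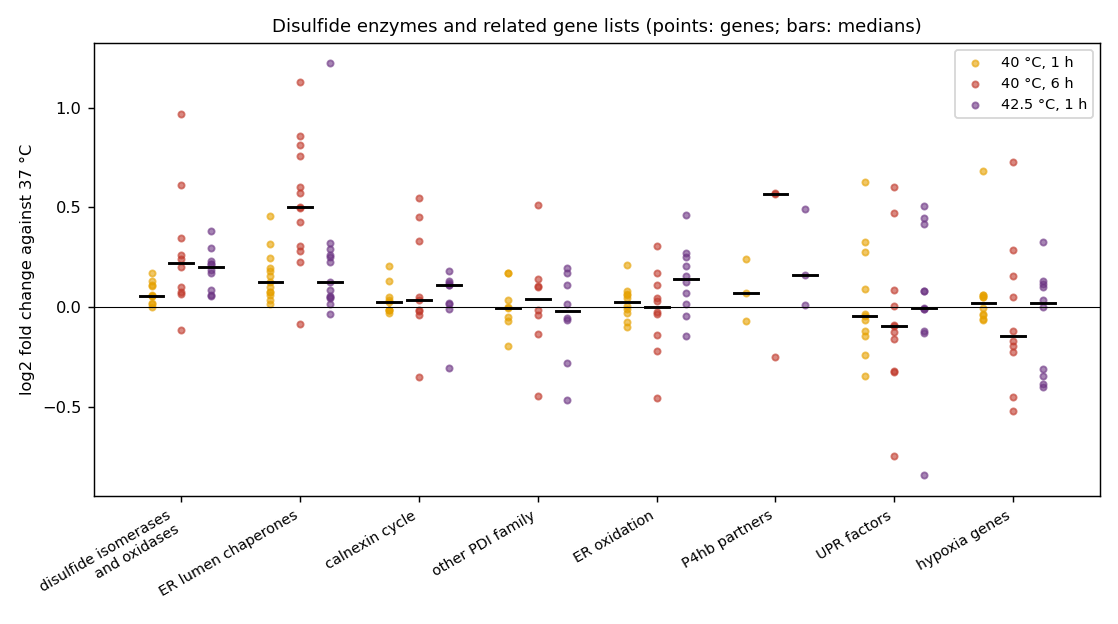
Log2 fold change against 37 °C of each tested gene in the 10 disulfide isomerase and oxidase genes and in 7 related lists, with a point for each gene, a black bar for each median and a color for each heated group. After 6 h at 40 °C the median is 0.22 for the disulfide enzymes, 0.50 for the ER lumen chaperones and -0.14 for the hypoxia genes.

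Among 11 sensors and factors of the UPR, 2 rose and 2 fell after 6 h at 40 °C. Xbp1, a transcription factor that drives ER genes, rose by 0.60 (adjusted p = 0.000116), and Ddit3 by 0.47 (adjusted p = 0.0188), whereas Atf4 fell by 0.75 (adjusted p = 2.68e-06) and Atf6 by 0.33 (adjusted p = 0.000356). The counts do not show splicing of Xbp1 or cleavage of Atf6. After 42.5 °C, Ppp1r15a rose by 0.51 (adjusted p = 0.000222) and Ern1 by 0.41 (adjusted p = 0.00445), and Trib3 fell by 0.84 (adjusted p = 9.33e-05) and Atf6b by 0.13 (adjusted p = 0.0341). After 1 h at 40 °C, 0 of the 11 passed by edgeR and 1 by DESeq2, and 5 had an unadjusted p below 0.05. Of 10 tested hypoxia response genes, a list to which Ero1a belongs by its known regulation, 2 rose and 3 fell after 6 h at 40 °C. Those that rose were Adm (0.73, adjusted p = 0.0499, the only one of the list past 1.5-fold), a vasodilator peptide, and Egln1 (0.16, adjusted p = 0.0355), an oxygen sensor, and those that fell were Vegfa (by 0.52, adjusted p = 0.000265), Epas1 (by 0.45, adjusted p = 0.00209) and Slc2a1 (by 0.23, adjusted p = 0.00349). After 42.5 °C, 2 rose and 1 fell, and after 1 h at 40 °C 0 passed by edgeR and 0 by DESeq2, with 1 at an unadjusted p below 0.05.

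As a check of the treatment, all 5 cytosolic heat shock genes tested rose after 1 h at 40 °C and after 42.5 °C, and 4 rose after 6 h at 40 °C. Of the 7 genes listed, Hspa8 and Hsp90aa1 were not matched by name and so not tested. By DESeq2, 4 of the 5 passed after 1 h at 40 °C. Their median was 1.08, 2.96 and 0.74 in the groups at 40 °C for 1 h, 42.5 °C and 40 °C for 6 h. Hspb1, the small heat shock protein, was at 53.9 ± 3.88 CPM at 37 °C, 117 ± 28 CPM after 1 h at 40 °C, 156 ± 58.4 CPM after 6 h and 425 ± 139 CPM after 42.5 °C. By contrast, Pdia4 and Pdia6 were lower after 42.5 °C than after 40 °C for 6 h, as given above.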

How the data were processed

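Total RNA of CHO cells was sequenced as paired-end reads (TruSeq, Illumina NextSeq). Per the study's methods, the authors used CLC Genomics Workbench to trim, to map against the CHOK1GS_HDv1 assembly of the hamster and to count. The authors deposited raw read counts per gene, whole numbers without normalization. The annotation release, the strandedness and the treatment of reads with several mapping places are not given in the sources used here. Of 20824 genes, 4423 are listed by identifier only. The 37 °C replicate D was left out because its counts are not those the study lists for its 3 controls.

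The groups of each comparison were fitted alone with edgeR 4.0.16 (R 4.3.3): filterByExpr defaults, TMM, quasi-likelihood F test, Benjamini-Hochberg adjustment over all genes tested. The SE is the absolute log2 fold change over the square root of F. Log2 CPM for distances used a prior count of 2. On simulated counts, 200 genes among 10459 were changed, each by at least 1.5-fold up or down. The comparison of 40 °C for 1 h with 37 °C recovered 183 and made 195 calls, of which 12 were false. With no changed gene it made 0 calls. For 42.5 °C against 37 °C, 18 of 203 calls were false, the most of any comparison. Smaller changes, such as most of those reported here, were not simulated. Members were named by function, and the related lists were written from general knowledge. Both were chosen with earlier results of these data known. Genes of these lists that are named are those that passed a test or define the list, and the 3 nearest profiles were taken for Pdia4 and Pdia3. RefSeq (CriGri-PICRH-1.0, another build) was used for gene names and for which genes overlap.

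Same-lettered libraries were checked for shared deviations. Between 40 °C for 1 h and 37 °C the correlations were 0.189, 0.102 and 0.186 over 10494 genes, all above 0.1, and this comparison was also fitted with the letter as a block. The alternatives were DESeq2 1.42.0, its size factors, other filters on low counts (none, or at least 10 counts in every library), all 4 controls, a single fit of all groups, the block, glmTreat against 1.5-fold, and leaving out each library. The precision of a level is given by the spread of the biological repeats. Floors of 3 counts cover counting error only.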

Additional observations from a re-analysis of the deposited data

Results flagged for a closer look

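The libraries of 2 of 40 gene-group combinations contained a value apart from its group by Dixon's test, for which chance flags about 1 group in 20. In the group at 40 °C for 6 h, P4hb was at 893 CPM in replicate A, below the 973 to 981 CPM of the other libraries, and Pdia6 was at 1373 CPM in replicate B, above the 1170 to 1200 CPM of the others.

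Differences between heat treatments that passed the test are listed with their log2 values. Between 6 h and 1 h at 40 °C they were 0.14 for P4hb, 0.45 for Pdia3, 0.86 for Pdia4, 0.33 for Pdia6 and 0.21 for Erp44. Between 42.5 °C and 40 °C at 1 h they were 0.12 for P4hb, 0.21 for Pdia3 and 0.24 for Erp44. Between the 6 h treatment and 42.5 °C they were 0.23 for Pdia3, 0.79 for Pdia4, -0.17 for Pdia5 and 0.26 for Pdia6.

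The control library left out, 37 °C replicate D, was above the highest of the other controls for 8 of the 10 genes. The share of all genes above the other controls in that library was not counted. Over 10565 genes, its log2 difference from the mean of the other controls had an SD of 0.475. For replicates A to C, each against the other controls used, that SD was 0.167 to 0.181. The left-out library thus departed widely, not only in these genes. Replicate D was at 924 CPM for Pdia3, 1109 CPM for Pdia6, 129 CPM for Erp44, 838 CPM for P4hb, 308 CPM for Pdia4, 76.7 CPM for Pdia5, 504 CPM for Txndc5 and 206 CPM for Tmx1. The ratio to the mean of the other controls was 1.39 for Pdia3, 1.31 for Erp44, 1.15 for Pdia6 and from 1.03 to 1.07 for the other 5.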

How the results depend on the processing

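The rise of Pdia4 after 6 h at 40 °C passed the test in all 15 alternatives, at 0.86 to 1.03. Those of Pdia3, P4hb and Pdia6 passed in 14 and those of Erp44 and Tmx1 in 13. Over the 10 genes in all comparisons and alternatives, 804 values kept their direction and side of the threshold. Another 48 lost a call, 14 gained one and 34 changed sign, the last always for values that had not passed. With all 4 controls, 2 of the 10 genes passed at 42.5 °C, beside 6, and 1 was called at 6 h, beside 2, and all-gene counts at 40 °C for 1 h, 40 °C for 6 h and 42.5 °C were 4, 1122 and 1895, beside 172, 3091 and 4510. Against a 1.5-fold change (glmTreat), 1 of the 10 passed at 6 h against 37 °C and 0 in each of the other comparisons, with 2 to 262 of all genes, beside 172 to 4904 that passed and 35 to 860 that were called at 1.5-fold. For 40 °C for 1 h against 37 °C, all-gene counts were also 323 without a filter and 107 in a single fit (which left 5 of the 10 at 42.5 °C), 63 to 276 without single libraries, and 3 called with all 4 controls, beside 35.

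The replicate block gave 4 of the 10 at 40 °C for 1 h, beside 0, and 634 of all genes (6.04%), beside 172. In the other comparisons the correlations of same-lettered libraries ran from -0.0542 to 0.175. Between 6 h and 1 h at 40 °C they were 0.128 for letter A and 0.175 for D, against -0.0542 for B and 0.0129 for C. The block moved no count of calls among the 10 genes in these comparisons by over 1.5 times.

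Leaving out each library in turn, called genes at 6 h against 37 °C numbered 1 to 2, with the lower count without replicate B of the 6 h group, and passing genes between 6 h and 1 h at 40 °C numbered 3 to 5, while all genes passing there went from 1931 to 1282 without replicate B of the 6 h group.

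Sign changes with other settings concerned values near 0. Pdia5 after 1 h at 40 °C was -0.00124 with DESeq2 size factors, -0.00122 with DESeq2, -0.0161 with all 4 controls, -0.000272 in a single fit and -0.0192 with the block. With all 4 controls Pdia6 was -0.0382 and Erp44 -0.0543 there. Ero1a between 42.5 °C and 40 °C at 1 h was -0.00349 without a filter. Without single libraries, the values after 1 h at 40 °C ran from -0.0226 to 0.023 for Pdia5, -0.0114 to 0.0377 for Pdia6 and -0.0285 to 0.061 for Ero1b. Between 6 h and 1 h at 40 °C they ran from -0.00435 to 0.0589 for Ero1a and -0.0128 to 0.047 for Txndc5, and between 42.5 °C and 40 °C at 1 h from -0.019 to 0.0452 for Ero1a. Between the 6 h treatment and 42.5 °C they ran from -0.0039 to 0.0462 for P4hb, -0.0155 to 0.0436 for Ero1a, -0.0935 to 0.00783 for Erp44 and -0.0567 to 0.0215 for Tmx1. Except where a library is named, the cause of a change was not tested. The lowest count of the 10 genes in the libraries used was 140, for Ero1b.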
